A study of Mus musculus with 16 samples.

Results

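Hmgcs1, Idi1, Fdft1, Sqle, Lss, Cyp51 and Dhcr7 encode 7 enzymes of cholesterol synthesis. They were picked by symbol as a named group, not by a threshold on a measured value. The choice was made with earlier results of these data known, so counts of signs or separations over them are description, not a test. All 7 were found among the 18424 genes of the table. The samples were medial prefrontal cortex (mPFC) of male C57BL/6N mice at postnatal day 120 (P120), profiled by RNA sequencing of polyadenylated RNA. There were 4 groups of 4 mice. Wild-type (WT) and heterozygous (HT) mice, the latter carrying 1 Arid1b allele truncated at exon 5 in every cell, were reared by dams that drank either vehicle, which was 0.2% saccharin water (WT-Veh and HT-Veh), or the same water with fluoxetine hydrochloride at 0.1 mg/ml (WT-Flx and HT-Flx), so that pups took the drug through milk from P3 to P21. All mice drank normal water after weaning, so each value describes a brain collected long after exposure had ended. Pups were dosed by litter through the dam and caged together, and which mice shared a dam is not given in the sources used here, so the p-values measure the spread between these mice and cannot separate litter from group.

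Cholesterol is built from acetyl-CoA through mevalonate, isoprenoid units, squalene and lanosterol. Circulating lipoproteins hardly cross into the brain, which therefore makes its own cholesterol, much of it in oligodendrocytes for myelin and in astrocytes that supply neurons. When sterols run low, the transcription factor encoded by Srebf2 is released from the endoplasmic reticulum and switches on most of the pathway, while Insig1 holds it back. In the order of the pathway, Hmgcs1 makes HMG-CoA, Idi1 interconverts the isoprenoid building blocks, Fdft1 joins farnesyl units into squalene, Sqle epoxidizes squalene, Lss closes the ring to lanosterol, Cyp51 demethylates lanosterol, and Dhcr7 performs a late reduction that yields cholesterol or its immediate precursors.

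The promoters are shown because genes under one sterol-sensing factor are often described by the motifs they share. RefSeq promoter windows, 250 bases before to 50 after a gene start, were matched by symbol for 5 of the 7 genes (7 windows, 3 of them for Dhcr7). Fdft1 and Sqle are named only. In the windows below, read 5′ to 3′ on the strand of the gene in GRCm38.p6, capitals mark the sterol regulatory element core TCACNCCAC and the NF-Y box CCAAT, each searched on both strands (a CCAAT on the other strand reads ATTGG).
Hmgcs1, chr13:119690101-119690400, plus strand: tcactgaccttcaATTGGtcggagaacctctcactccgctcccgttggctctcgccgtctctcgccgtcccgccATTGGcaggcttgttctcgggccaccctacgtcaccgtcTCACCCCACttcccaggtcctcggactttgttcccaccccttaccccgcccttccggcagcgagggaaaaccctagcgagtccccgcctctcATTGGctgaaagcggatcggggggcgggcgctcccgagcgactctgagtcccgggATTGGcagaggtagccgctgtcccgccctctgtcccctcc
Idi1, chr13:8885356-8885655, plus strand: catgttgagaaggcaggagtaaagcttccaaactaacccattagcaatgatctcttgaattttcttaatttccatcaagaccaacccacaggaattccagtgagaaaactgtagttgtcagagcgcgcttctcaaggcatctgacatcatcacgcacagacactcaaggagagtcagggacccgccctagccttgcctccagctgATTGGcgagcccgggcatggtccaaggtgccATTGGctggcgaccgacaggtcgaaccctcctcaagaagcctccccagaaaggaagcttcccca
Lss, chr10:76531355-76531654, plus strand: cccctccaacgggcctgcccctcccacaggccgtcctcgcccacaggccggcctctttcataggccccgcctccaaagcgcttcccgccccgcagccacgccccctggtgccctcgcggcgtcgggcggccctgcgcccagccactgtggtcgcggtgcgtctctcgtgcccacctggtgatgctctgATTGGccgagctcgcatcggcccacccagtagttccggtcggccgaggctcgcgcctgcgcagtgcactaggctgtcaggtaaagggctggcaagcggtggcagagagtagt
Cyp51, chr5:4104648-4104947, minus strand: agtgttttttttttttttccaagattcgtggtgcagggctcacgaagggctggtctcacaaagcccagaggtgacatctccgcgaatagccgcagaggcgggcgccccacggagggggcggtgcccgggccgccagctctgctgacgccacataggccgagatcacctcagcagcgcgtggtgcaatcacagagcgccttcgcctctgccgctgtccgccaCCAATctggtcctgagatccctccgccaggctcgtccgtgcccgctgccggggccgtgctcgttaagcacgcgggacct
The sterol regulatory element core was present in Hmgcs1, where its first base lay 137 bases upstream of the start, and in no other of the 7 windows. It occurred in 1.24% of all 32851 windows of the same length. CCAAT was found in all 4 windows printed, with 4 matches in Hmgcs1, 2 in Idi1 and 1 each in Lss and Cyp51, none of which overlapped the sterol element. Of the 3 Dhcr7 windows, the one at chr7:143829964-143830263 held 2 CCAAT matches. That box is common, occurring in 37.4% of all windows. These matches describe letters in a window and are not binding sites. Only the stated form of the sterol element was searched, so other forms would not be marked.

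Total normalized counts ranged from 26718800 to 29902400 per library, and the sequencing depth behind them is unknown because the deposited values were already scaled. Arid1b itself averaged lower in HT than in WT mice at 0.766-fold with vehicle (limma adjusted p = 0.922) and 0.761-fold with fluoxetine (adjusted p = 0.289). Its groups did not overlap in the fluoxetine comparison, whereas WT-Veh replicate 1, at 1787, lay inside the HT-Veh range of 1619 to 2005. In 5 of 16 libraries the summed counts of 7 olfactory bulb markers exceeded 3 times the median library, reaching 10247 against 226 to 409 in the other 11. These bulb-rich libraries were HT-Veh replicate 4, WT-Veh replicate 1 and all WT-Flx libraries except replicate 3. No HT-Flx library was among them, so bulb markers and group move together. For members of the 7 genes in each comparison, for the correlations and for the ranking of similar genes, values without these libraries are given. For the other lists they are given only in part. The comparisons without them were fitted over all 4 groups, since 1 WT-Flx mouse remained, assumed to vary like the others.

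All 7 genes were well expressed in the mPFC. Scaled to the length of the longest coding transcript, Hmgcs1 was the most abundant at 2031 ± 265 normalized counts per kb (SD, n = 16). Fdft1 (589 ± 62.6), Sqle (550 ± 61.6) and Idi1 (530 ± 50.3) followed with overlapping ranges over the 16 mice. Cyp51 (409 ± 34.7), Lss (302 ± 56.4) and Dhcr7 (245 ± 25.9) lay lower, but the range of Cyp51 (303 to 459) overlapped those of Idi1 (from 408), Sqle (from 441) and Lss (up to 400), and the ranges of Lss and Dhcr7 overlapped too. These ranges pool the mice, and the order of the genes within each mouse was not tested. HT-Veh replicate 1 held the lowest value of Idi1, Sqle and Cyp51 alike, so overlapping ranges need not mean a changed order within a mouse. Lss was the most variable between mice, with a coefficient of variation of 18.7%, against 8.49% for Cyp51, the least variable. Exons of Fdft1 overlap those of Ctsb, and exons of Cyp51 those of Akap9, on the opposite strand. The kit marks strand but use of strand in quantification is not given in the sources used here, so reads from each pair may not be separable.

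**Figure D1:**
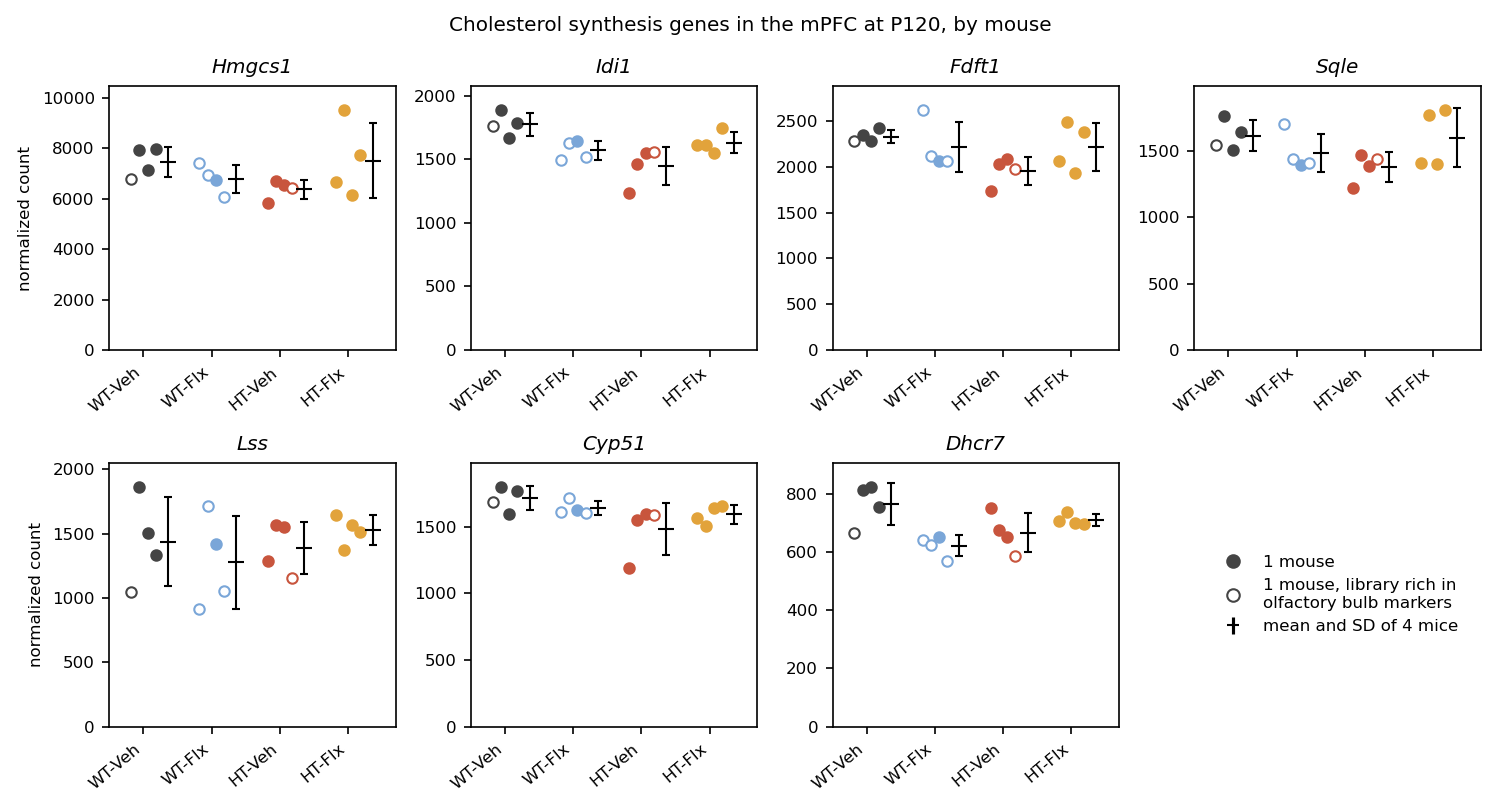
Normalized counts of the 7 genes in the mPFC at P120, 1 point per mouse, by group. Black marks give the mean and SD of 4 mice, and open points are the 5 libraries rich in olfactory bulb markers. HT-Veh points sit below WT-Veh points without overlap for Hmgcs1, Idi1, Fdft1 and Sqle, and the open points sit low for Dhcr7 and, except WT-Flx replicate 2, for Lss.

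The first comparison asked how HT and WT mice differed without the drug. All 7 genes had lower means in HT-Veh than in WT-Veh mice, against 48.2% of all 16832 genes tested. In 4 of them, Idi1, Fdft1, Hmgcs1 and Sqle, every HT-Veh mouse lay below every WT-Veh mouse, a separation in that direction seen in 1.78% of all genes. The same 4 had an unadjusted p under 0.05 in limma, as did 2.26% of all genes in the downward direction. None passed the adjusted threshold of 0.05, which 3 genes in the whole table did (0.0178%).

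Idi1 showed the largest difference. It measured 1758, 1887, 1665 and 1788 in WT-Veh mice and 1236, 1459, 1551 and 1554 in HT-Veh mice. The HT-Veh mice were all lower, with replicate 1 far below the other 3, and the HT-Veh mean was 81.7% of the WT-Veh mean. The log2 difference was -0.30 (95% interval -0.49 to -0.10, unadjusted p = 0.00629, adjusted p = 0.872).

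Fdft1, which commits the pathway to sterols, measured 2281, 2342, 2275 and 2417 in WT-Veh mice. The HT-Veh mice stood at 1739, 2031, 2086 and 1976. The WT-Veh mice were tightly grouped, at 2329 ± 65.9 (SD, n = 4), and all HT-Veh mice lay below them at 1958 ± 152. The log2 difference was -0.25 (interval -0.41 to -0.09, unadjusted p = 0.00509, adjusted p = 0.872).

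Hmgcs1 measured 6781, 7933, 7136 and 7969 with WT-Veh and 5846, 6692, 6552 and 6435 with HT-Veh. The gap between the groups was narrow, from 6692 to 6781. Its log2 difference was -0.22 (interval -0.39 to -0.05, unadjusted p = 0.0145, adjusted p = 0.922). Sqle, a second control point of the pathway, measured 1541, 1761, 1508 and 1645 in WT-Veh mice and 1216, 1465, 1386 and 1436 in HT-Veh mice. Again no HT-Veh mouse reached the lowest WT-Veh mouse, and the log2 difference was -0.23 (interval -0.41 to -0.05, unadjusted p = 0.0185, adjusted p = 0.922). For each of these 4 genes the exact permutation test over mice, two-sided, gave p = 0.0286, the smallest that 4 against 4 mice can give. Complete separation of the groups fixes that value, so it restates the separation and adds no further support.

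The 3 sterol-ring enzymes were less clear. Cyp51 measured 1690, 1803, 1597 and 1772 in WT-Veh mice and 1189, 1552, 1599 and 1589 in HT-Veh mice. The groups overlapped by a single pair of mice, and HT-Veh replicate 1 stood alone at the bottom. The log2 difference of -0.22 had an interval of -0.44 to 0.01 (exact permutation p = 0.0571), and without that mouse it was -0.12. Dhcr7 was lower by a similar size, with a log2 difference of -0.20 (interval -0.43 to 0.03), but its groups overlapped (666 to 825 against 586 to 751). Lss hardly differed between the means, 1437 ± 344 against 1390 ± 202 (SD, n = 4), with an interval from -0.40 to 0.34 that leaves differences of either sign possible.

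HT-Veh replicate 1 was the lowest of all 16 mice for 5 of the 7 genes, and WT-Veh replicate 2 the highest for 3. Leaving out any 1 of the 8 mice left between 3 and 6 of the 7 genes with an unadjusted p under 0.05. In a fit of all 4 groups 5 did, with Cyp51 and Dhcr7 added and Hmgcs1 no longer among them (-0.22, unadjusted p = 0.0614). With bulb markers as a covariate in the fit of the 8 mice, every member but Lss had an unadjusted p under 0.05. These limma p-values ran from 0.00208 for Fdft1 to 0.0428 for Cyp51, with 0.448 for Lss and a smallest adjusted p of 0.211. The share of all genes given above belongs to the fit of the 8 mice alone, without a covariate. Without the 5 bulb-rich libraries, which leaves 1 WT-Flx mouse, the fit of all 4 groups gave negative estimates for all 7 genes. These were Idi1 (-0.34), Fdft1 (-0.27), Sqle (-0.27), Hmgcs1 (-0.27), Cyp51 (-0.26), Dhcr7 (-0.20) and Lss (-0.09). All 10 oligodendrocyte markers also had lower means in HT-Veh mice (median log2 difference -0.11, none with an unadjusted p under 0.05), although their summed counts overlapped, at 73863 to 103975 against 66696 to 116319 in WT-Veh mice. Astrocyte marker sums overlapped as well, at 155904 to 225312 against 116532 to 187400. None of these marker genes was at 0 in any library, and their part in the result was not tested. In bulk tissue, fewer cells of a type and less RNA per cell cannot be told apart.

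**Figure D2:**
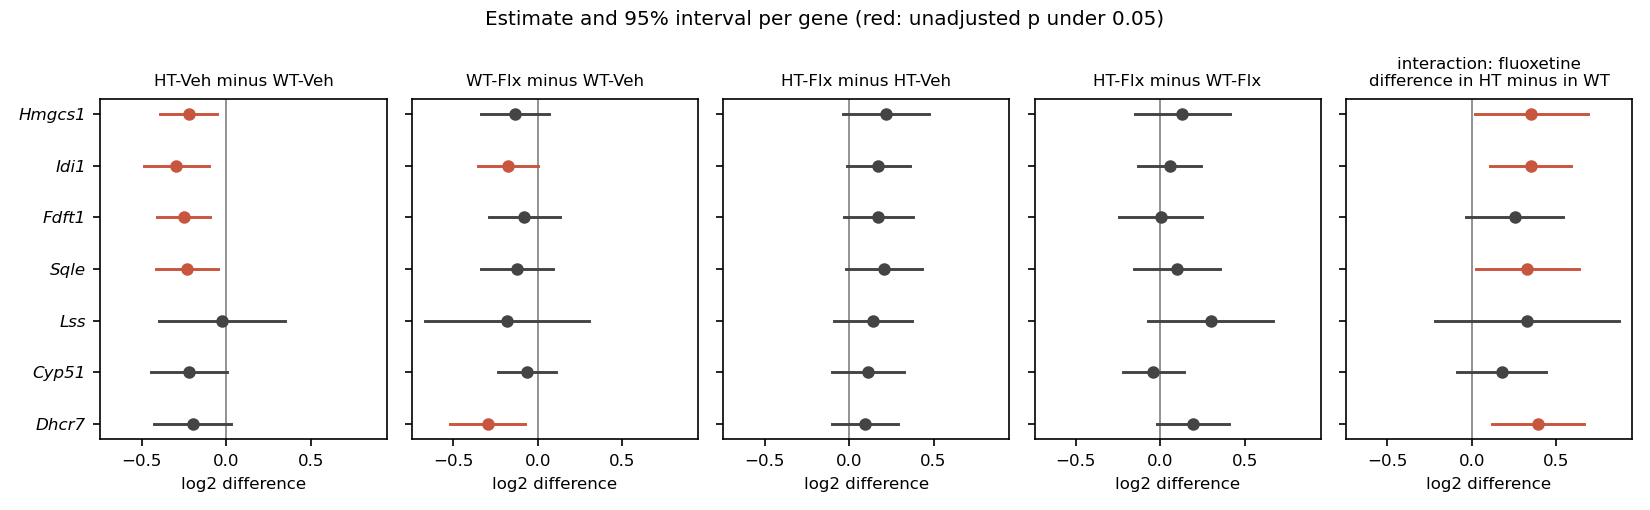
Log2 difference of each of the 7 genes with its 95% interval from limma in the 4 comparisons of groups and in the interaction, red where the unadjusted p was under 0.05. Estimates are below 0 for all 7 genes in HT-Veh against WT-Veh and in WT-Flx against WT-Veh, and above 0 for all 7 in HT-Flx against HT-Veh and in the interaction.

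The rest of the pathway was described from a list of 14 other synthesis enzymes. All 14 had lower means in HT-Veh than in WT-Veh mice, with a median log2 difference of -0.15, beside -0.22 for the 7 genes and 0.01 over all genes tested. None passed the adjusted threshold, and 4 of 14 had an unadjusted p under 0.05. Mvd, which makes isopentenyl diphosphate, differed most at -0.40 (0.756-fold, groups not overlapping, adjusted p = 0.839). Fdps, the farnesyl diphosphate synthase, was at -0.35 and Acat2, which condenses acetyl-CoA, at -0.15. They are named for a small unadjusted p, not for the size of the difference. Msmo1, a sterol demethylating oxidase named after its value was seen, was at -0.20. Of the 14, 12 had lower means and 2 higher without the bulb-rich libraries, with a median of -0.19, where 8523 of 17118 genes were below 0.

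**Figure D3:**
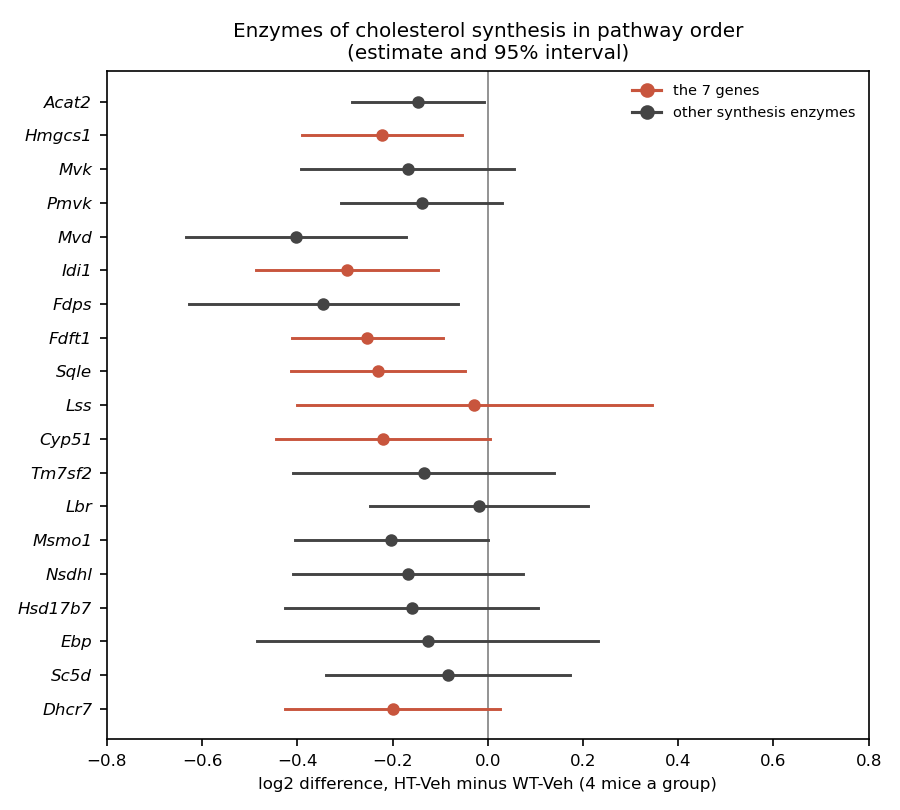
Log2 difference between HT-Veh and WT-Veh mice, with its 95% interval, for 19 enzymes from the start of the pathway (top) to its end, the 7 genes in red and 12 of the 14 other enzymes in grey. Every estimate drawn is below 0, the largest being -0.40 for Mvd, and most intervals include 0.

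In the lists of regulators and neighbouring pathways both signs occurred. Of 7 genes of SREBP regulation, 4 had lower and 3 higher means, among them Srebf2 at -0.12 (interval -0.31 to 0.07) and Insig1 at -0.19 (unadjusted p = 0.0399, adjusted p = 0.922). The split was 3 lower and 4 higher without the bulb-rich libraries. Of 16 genes of cholesterol uptake, transport and turnover, 9 were lower and 7 higher, with a median of -0.03 and none with an unadjusted p under 0.05. Of 8 genes of fatty acid synthesis, 6 were lower and 2 higher, with a median of -0.04 and none with an unadjusted p under 0.05. Without the bulb-rich libraries the splits of sign in the uptake and fatty acid lists were unchanged. Their medians were then -0.02 and -0.09, with estimates from -0.26 to 0.14 for uptake and from -0.28 to 0.12 for fatty acids. With all libraries these ran from -0.20 to 0.18 and from -0.15 to 0.27. The absence of an unadjusted p under 0.05 in these 2 lists holds for the fit of the 8 mice alone.

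Next, fluoxetine was compared with vehicle within each genotype, and each of these comparisons shares its vehicle mice with the comparison above, so a high or low vehicle mouse moves both. In WT mice all 7 genes again had lower means after fluoxetine, as did 50.2% of all genes. Idi1 and Dhcr7 did not overlap between the groups, a separation seen downward in 1.09% of all genes, and were also the only members of the 7 with an unadjusted p under 0.05 (2.00% of all genes in that direction). No gene of the table passed the adjusted threshold (0% of 16833), while 707 had an unadjusted p under 0.05.

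Dhcr7 measured 666, 813, 825 and 755 in WT-Veh mice and 641, 623, 651 and 569 in WT-Flx mice. The WT-Flx mean was 81.2% of the WT-Veh mean, and the log2 difference was -0.30 (interval -0.52 to -0.07, unadjusted p = 0.0143). Idi1 measured 1493, 1625, 1641 and 1518 in WT-Flx mice, all below the lowest WT-Veh mouse at 1665. Its log2 difference was -0.18 (interval -0.35 to 0.00, unadjusted p = 0.0488). Among other enzymes, 13 of 14 had lower means, with Mvd at -0.35 (unadjusted p = 0.0465), while all 10 oligodendrocyte markers had higher means (median 0.15). Acly, which supplies cytosolic acetyl-CoA, was lower by 0.17 without overlap.

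Of the 4 WT-Flx libraries, 3 were rich in bulb markers. Without the bulb-rich libraries Dhcr7 was at -0.29, while Idi1 stood at -0.12. With the bulb marker score as a covariate Dhcr7 was at -0.22 and Idi1 at -0.16. The count of 2 genes with an unadjusted p under 0.05 dropped to 1 with that covariate. It also dropped to 1 when any of WT-Flx replicates 2, 3 and 4 or WT-Veh replicates 1, 2 and 4 was left out.

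In HT mice the estimates had the other sign. All 7 genes had higher means in HT-Flx than in HT-Veh mice, where 48.8% of all genes were lower, with log2 differences from 0.10 for Dhcr7 to 0.22 for Hmgcs1. None of the 7 had an unadjusted p under 0.05 (1.43% of all genes in that direction), none separated the groups (0.934%), and 0% of the 16814 genes passed the adjusted threshold, with 516 at an unadjusted p under 0.05. Hmgcs1 was widely spread in HT-Flx mice, at 6655, 9527, 6149 and 7740, so that 2 of them stood no higher than HT-Veh mice (5846 to 6692). Sqle showed the same split, at 1410, 1770, 1398 and 1807, with replicates 2 and 4 above every HT-Veh mouse and replicates 1 and 3 inside their range. For Idi1, at 1614, 1614, 1546 and 1742, a single HT-Flx mouse fell inside the HT-Veh range of 1236 to 1554. The count of genes with an unadjusted p under 0.05 became 3 without HT-Flx replicate 3, and 1 without HT-Flx replicate 1 or without HT-Veh replicate 4. It was also 1, Idi1, in a fit of all 4 groups with all libraries (0.17, unadjusted p = 0.0463). Without the bulb-rich ones that fit put Idi1 at 0.21. Of other enzymes, 10 of 14 had higher means, including Hsd17b7, a sterol ketone reductase, at 0.22 (adjusted p = 1.00). Elovl6, which elongates fatty acids, was at 0.25 (unadjusted p = 0.0192).

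HT-Flx and WT-Flx mice were compared last among the pairs. Of the 7 genes, 6 had higher means in HT-Flx mice and 1 lower, where 48.4% of all genes were lower, and log2 differences ran from -0.04 for Cyp51 to 0.30 for Lss. None had an unadjusted p under 0.05 (5.58% of all genes upward) and none passed the adjusted threshold, which 7 genes did (0.0417%). Dhcr7 alone separated the groups, as did 2.70% of all genes upward. Its HT-Flx mice, at 706, 738, 698 and 695, were all above the WT-Flx maximum of 651, and the log2 difference was 0.19 (interval -0.02 to 0.40, adjusted p = 0.500). All 7 olfactory bulb markers were lower in HT-Flx mice, with a median log2 difference of -2.69, since 3 WT-Flx libraries were rich in them. With the marker score as a covariate, the estimate for Lss went from 0.30 to 0.13 and that for Dhcr7 from 0.19 to 0.08. The scores did not overlap, at 4.25 to 5.04 in HT-Flx and 5.38 to 9.65 in WT-Flx libraries, so the covariate cannot separate bulb markers from group here. Without the bulb-rich libraries, which leaves 1 WT-Flx mouse, the estimates were 0.10 for Lss and 0.12 for Dhcr7.

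Whether the drug difference itself depended on genotype was tested as an interaction over all 16 mice. All 7 estimates were positive, which was fixed by the signs above, higher after fluoxetine in HT and lower in WT mice. They ran from 0.18 for Cyp51 to 0.39 for Dhcr7, with a median of 0.33. Of all genes, 49.7% were below 0, and the median over all genes was 0.00. Dhcr7 was at 0.39 (interval 0.12 to 0.67, unadjusted p = 0.00762, adjusted p = 0.998) and Idi1 at 0.35 (interval 0.11 to 0.59, unadjusted p = 0.00676, adjusted p = 0.998). Sqle at 0.33 and Hmgcs1 at 0.35 were the other members with an unadjusted p under 0.05, as were 2.00% of all genes upward. The adjusted p was 0.998 for each of the 7, and 0% of 17567 genes passed, with 754 at an unadjusted p under 0.05. Without the bulb-rich libraries, with a single WT-Flx mouse left, all 7 estimates were again positive. Sqle was then at 0.46, Hmgcs1 at 0.41, Dhcr7 at 0.33 and Idi1 at 0.32. With the marker score as covariate 2 of the 7 had an unadjusted p under 0.05, Idi1 (0.35) and Dhcr7 (0.27). Sqle stood at 0.32 (unadjusted p = 0.0506) and Hmgcs1 at 0.30 (unadjusted p = 0.0812) in that fit. The count also dropped from 4 to 2 when any one of WT-Veh replicates 2 or 4, WT-Flx replicates 3 or 4, HT-Veh replicate 1, or HT-Flx replicates 2 or 4 was left out. Among other enzymes 13 of 14 estimates were positive, led by Mvd (0.70) and Hsd17b7 (0.48), each with an unadjusted p under 0.05 and an adjusted p of 0.998. Fasn, the fatty acid synthase, was at -0.35 and Elovl6 at 0.36.

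Averaged over treatments, genotype gave small differences. Idi1 was lower by 0.12 on the log2 scale in HT mice (interval -0.24 to 0.00, unadjusted p = 0.0480, adjusted p = 0.422), the only member of the 7 with an unadjusted p under 0.05, as had 5.36% of all genes downward; 10 genes passed the adjusted threshold (0.0569%), none of them among the 7. Averaged over genotypes, fluoxetine differed from vehicle by -0.10 for Dhcr7 to 0.05 for Fdft1, with no member of the 7 at an unadjusted p under 0.05 (1.46% of all genes upward, 568 in both directions) and 0% of genes past the adjusted threshold. Vldlr, a lipoprotein receptor, was higher in HT mice at 0.22 (adjusted p = 0.387), and Insig1 lower at -0.15 (adjusted p = 0.387). Without the bulb-rich libraries, Idi1 was at -0.17 for averaged genotype. Averaged fluoxetine then ran from -0.13 for Dhcr7 to 0.05 for Idi1 among the 7 genes.

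Lss and Dhcr7 were the members whose low values coincided with olfactory bulb markers. Lss stood at 1044, 917, 1053 and 1155 in 4 of the 5 bulb-rich libraries, below all 11 others (1288 to 1866), while the fifth, WT-Flx replicate 2, was at 1715. Dhcr7 was between 569 and 666 in those 5 libraries, 4 of them below the 651 to 825 of the others. For the other 5 genes the bulb-rich libraries lay within the range of the rest or, for Fdft1, reached above it at 2618. With the marker score as a covariate the Lss interaction went from 0.33 to 0.09, and that of Dhcr7 from 0.39 to 0.27. Leaving out the bulb-rich libraries gave 0.19 and 0.33.

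**Figure D4:**
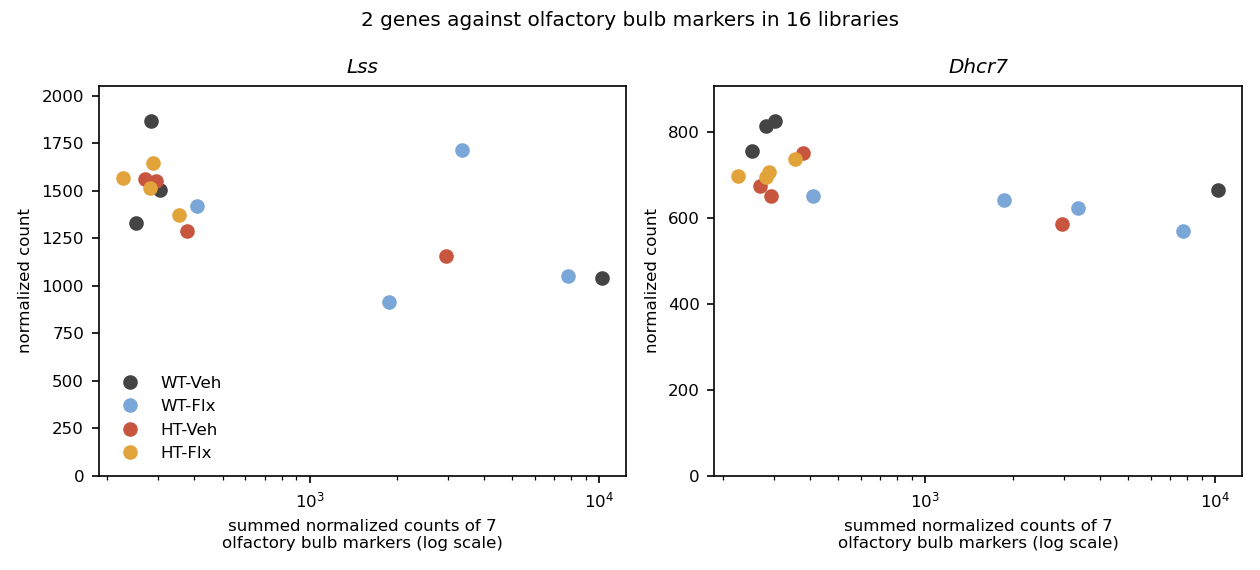
Normalized counts of Lss (left) and Dhcr7 (right) in 16 libraries against the summed counts of 7 olfactory bulb markers on a log axis, coloured by group. The 5 libraries to the right hold the 4 lowest values of each gene, and WT-Flx replicate 2 at 1715 is the exception for Lss.

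The 7 genes did not vary as one block between mice. Over 21 pairs and 16 mice, Pearson's r had a median of 0.43 and ran from -0.18 to 0.91, and 6 pairs had a Benjamini-Hochberg adjusted permutation p under 0.05. The median r over all pairs of the 17567 genes kept after dropping low genes was -0.002. Of those pairs, 11.3% reached the median r of the 7 genes. Without the bulb-rich libraries (11 mice) the median over the 21 pairs was 0.47, and the same 6 pairs passed. Fdft1 and Sqle, consecutive enzymes, moved most closely (r = 0.91, rho = 0.82, permutation p = 1e-05, the smallest that 100000 permutations can give, adjusted p = 0.000105). Hmgcs1 moved with both, at r = 0.88 with Sqle (rho = 0.87, adjusted p = 0.000105) and r = 0.84 with Fdft1 (rho = 0.91, adjusted p = 0.00028). These 3 pairs kept r of 0.89, 0.92 and 0.86 without the 2 mice farthest from the median of the first gene, and of 0.91, 0.83 and 0.83 on deviations from the group means, so the relation was present within groups.

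Idi1 and Cyp51 formed a second pair, with r = 0.87 (rho = 0.69, permutation p = 0.0001, adjusted p = 0.000525) and 0.86 within groups. That pair leaned on HT-Veh replicate 1 and WT-Veh replicate 2, since r was 0.60 without the 2 mice farthest from the Idi1 median. Idi1 also passed with Sqle (r = 0.68, rho = 0.54) and Fdft1 (r = 0.63, rho = 0.57), but both dropped on leaving out those mice, to 0.39 and 0.38. Within groups these 2 pairs did not pass, at r = 0.49 and 0.35 (adjusted permutation p = 0.194 and 0.321). Nor did they pass by rho (adjusted permutation p = 0.0951 and 0.0794). Over the 11 mice without bulb-rich libraries, r was 0.92 for Idi1 and Cyp51, 0.79 for Idi1 and Sqle and 0.83 for Idi1 and Fdft1. Those 11 still include HT-Veh replicate 1 and WT-Veh replicate 2. Lss passed with none of the other 6 genes (r from -0.18 to 0.48), and Dhcr7 with none. All points share the scaling of their library, and values of r over 16 mice are imprecise.

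**Figure D5:**
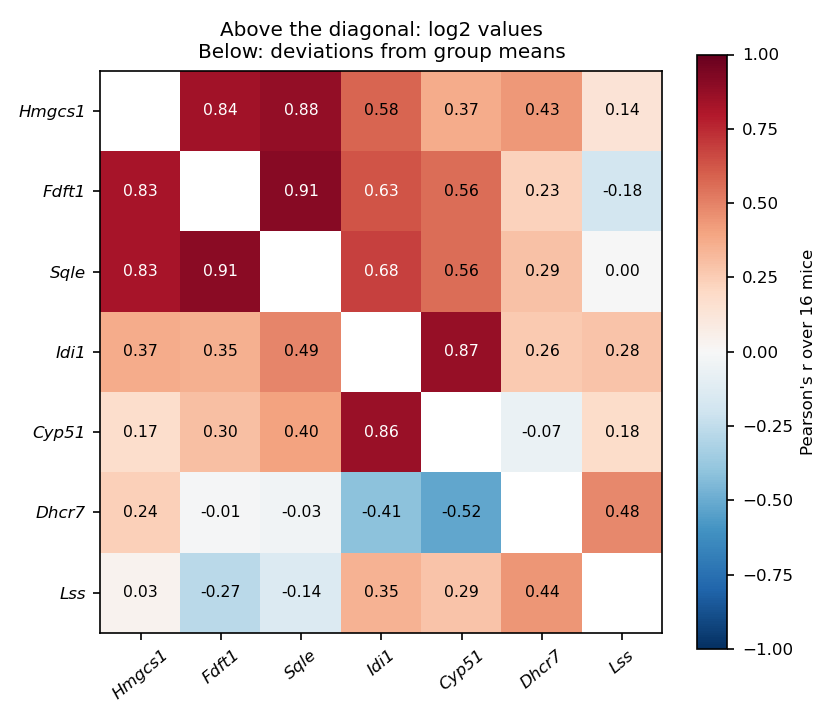
Pearson's r between the 7 genes over 16 mice, for log2 values above the diagonal and for deviations from the group means below it. Hmgcs1, Fdft1 and Sqle form a block of 0.83 to 0.91 in both triangles, Idi1 and Cyp51 a pair of 0.86 to 0.87, and Lss and Dhcr7 stay outside.

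Among 17560 other genes, those most like the mean of the 7 over 16 mice were ranked by Pearson's r, as a description without a test. The 10 highest included AC132307.5 (an antisense transcript, r = 0.82), Mylk3 (0.79), Srebf2 (0.76, rho 0.68), Gm30648 (0.74), Sfxn3 (0.74), 9130024F11Rik (0.72), Hsd11b1 (0.71) and Hsd17b7 (0.69). Without the 2 mice farthest from the median of that mean, WT-Veh replicate 2 and HT-Veh replicate 1, Srebf2 stood at 0.68 and Hsd17b7 at 0.70. Of 14 other synthesis enzymes, 5 were among the 100 highest (among them Hsd17b7, Sc5d and Msmo1), a rank held by 0.569% of all genes. Stard4 (0.66), which carries cholesterol between membranes, was in the same range. Insig1 was at rank 232 with r = 0.50. Not all regulators followed the 7 genes: Srebf1, the factor better known for fatty acid synthesis, was at r = -0.57 (rank 17410), Scap, which escorts the SREBP factors, at -0.13, and Insig2 at -0.11. Without the bulb-rich libraries r was 0.87 for Srebf2, 0.81 for Hsd17b7, 0.48 for Insig1 and -0.43 for Srebf1. Then 7 of the 14 other enzymes were among the 100 highest, while Gm30648 (0.64) and Stard4 (0.63) were not.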

How the data were processed

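Libraries were made by the submitters with a TruSeq Stranded mRNA LT kit and sequenced as paired ends. The authors quantified reads with Salmon 1.1.0 against GRCm38 with GC bias correction, imported them by gene and scaled them with DESeq2 1.30.1. The deposited values are therefore a normalized signal, that is estimated read counts divided by size factors. They are not whole numbers and show no common step, so depth is unknown and intervals cover the spread between mice alone.

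Symbols came from the GENCODE annotation of the same build. Low genes were dropped unless 4 or more samples of a fit reached a value of 10, and the rest were tested on log2(value + 1) with limma 3.58.1 (R 4.3.3, eBayes with trend), Benjamini-Hochberg adjusted over all genes at 0.05. Fold changes are on that scale. Pairs of groups used 8 mice, and interaction and averaged contrasts 16. Single genes were also tested by exact permutation. Correlations used 100000 permutations, adjusted over 21 pairs. Scripts were tested on simulated data. The 7 genes and all lists were chosen with earlier results of these data known. Named beyond them are list genes past the threshold or otherwise up to 3 per list with the smallest p, Srebf2 and Insig1, and genes among the 10 most like the mean of the 7. Some genes that this rule would name are not reported here. Alternatives were a pseudocount of 8, no filter, upper quartile scaling, a bulb marker covariate, a replicate block, all 4 groups in one fit, and leaving out each mouse. Leaving out the 5 bulb-rich libraries, and the covariate in the fit of 4 groups, were chosen after seeing the data, as was the count of genes with an unadjusted p under 0.05.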

Additional observations from a re-analysis of the deposited data

Results flagged for a closer look

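Each of the 28 sets of 4 mice (7 genes in 4 groups) was examined for a mouse whose gap to its nearest neighbour was large against the range of its group by Dixon's criterion at the 95% level, which chance passes in about 1 of 20 sets. In 4 sets a mouse stood apart. WT-Flx replicate 1 was the highest of its group for Fdft1 at 2618 and for Sqle at 1699, so the 2 flags come from 1 library, and it is one of the bulb-rich libraries. WT-Flx replicate 2, also bulb-rich, was the highest for Cyp51 at 1720, so 3 of the 4 flags come from bulb-rich libraries. HT-Veh replicate 1 was the lowest for Cyp51 at 1189. That mouse was the lowest of 16 for 5 of the 7 genes, and its oligodendrocyte marker sum of 73863 was the lowest of its group. The part of that marker difference in its low values was not tested.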

How the results depend on the processing

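None of the 7 genes passed the adjusted threshold under any alternative (smallest adjusted p = 0.211). Of 910 recomputed differences, 40 changed sign, in 11 of the 49 gene and comparison pairs, and the causes were not tested. Below, calls are genes of the whole table past the adjusted threshold and low-p counts are members of the 7 with an unadjusted p under 0.05. The bulb-rich libraries were always left out in the fit of all 4 groups, so those counts differ from the main ones in both respects for the pairs of groups. The shares of all genes given earlier belong to the main fits, so low-p counts below have none beside them. They show only how far a count moved, not whether it exceeded the share over all genes.

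HT-Veh against WT-Veh had 3 calls, which became 21 with the bulb covariate, 0 in the fit of all 4 groups and without the bulb-rich libraries, 1 with the covariate in the fit of 4 groups, and 0 to 2 on leaving out single mice. HT-Flx against HT-Veh had a low-p count of 0, which was 1 with the covariate in either fit, 1 in the fit of 4 groups and without the bulb-rich libraries, and 0 to 3 on leaving out mice. WT-Flx against WT-Veh had 0 calls, then 1 with the covariate in either fit, 2 without the bulb-rich libraries and 0 to 4 on leaving out mice (4 without WT-Veh replicate 1). Its low-p count of 2 was 1 with upper quartile scaling, with the covariate in either fit and without the bulb-rich libraries, and 1 to 3 on leaving out mice.

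HT-Flx against WT-Flx had 7 calls, then 0 with the covariate in either fit, 4 in the fit of 4 groups, 2 without the bulb-rich libraries, and 0 (without WT-Flx replicate 1) to 23 (without WT-Flx replicate 3). Its low-p count of 0 reached 0 to 1 on leaving out mice. The interaction had 0 calls and 2 without the bulb-rich libraries. Its low-p count of 4 was 2 with the covariate, 2 without the bulb-rich libraries and 2 to 5 on leaving out mice. Genotype averaged over treatments had 10 calls, 3 with the covariate and 1 (without WT-Flx replicate 2) to 16 (without WT-Flx replicate 1) on leaving out mice. Its low-p count of 1 was 2 with upper quartile scaling, 0 with the covariate and 0 to 2 on leaving out mice. Fluoxetine averaged over genotypes had 0 calls, 2 without the bulb-rich libraries, and a low-p count of 0 to 1 on leaving out mice. The count of 6 correlated pairs ran from 4 to 10 (10 without HT-Flx replicate 2).

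Signs changed for Fdft1 in HT-Flx against WT-Flx (-0.022 with upper quartile scaling, -0.00501 with the covariate in the fit of 4 groups, -0.058 to 0.084 on leaving out mice) and for Idi1 there (-0.012 without the bulb-rich libraries). With the covariate, Lss was at -0.027 for averaged genotype and 0.019 for averaged fluoxetine. Without the bulb-rich libraries averaged fluoxetine gave 0.047 for Idi1, -0.00113 for Fdft1 and -0.000619 for Sqle. On leaving out single mice, Lss in HT-Veh against WT-Veh ran from -0.17 to 0.11 and Dhcr7 for averaged genotype from -0.036 to 0.027. For averaged fluoxetine the ranges were -0.019 to 0.086 for Hmgcs1, -0.040 to 0.015 for Idi1, -0.099 to 0.052 for Lss and -0.026 to 0.045 for Cyp51.

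Replicate numbers recur in the groups. Same-numbered mice correlated from -0.23 to 0.31, with 6 of 16 pairs over 0.1, and the main fits did not pair mice by number. These correlations cannot exclude that same-numbered mice shared a litter or batch. With the replicate as a block, HT-Veh against WT-Veh had 0 calls, the low-p count of HT-Flx against HT-Veh was 2, and averaged genotype had 17 calls with a low-p count of 2. Because the depth is unknown, how much of the spread between mice is counting error cannot be given.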
